A study of Mus musculus with 2 samples.

Results

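The enzymes described here build and decorate the sugar chains of mucins and related glycoproteins and glycolipids. They were taken as every gene whose symbol begins with Galnt, B3gnt, B3galt, B4galt, B4galnt, C1galt, Gcnt, St3gal, St6gal, Fut or Chst, which gave 66 of the 17044 genes with a row. Of these, 65 encode an enzyme or the chaperone of one, and Galnt6os is an antisense RNA that overlaps Galnt6. The cells were colon epithelium of C57BL/6 mice, wild type, taken 2 weeks after irradiation, and formed 1 group of 2 libraries. The series title refers to radiation proctitis treated with transplanted colonoids, which are organoids grown from colon crypts. The labels do not give the age or number of the mice, the radiation dose, or which cells descend from a graft, and unirradiated controls were not analysed here.

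The data are the average level of each gene in 12 clusters of cells, numbered 0 to 11, per 10000 UMIs (unique molecular identifiers, which count captured RNA molecules). Columns are headed by cluster alone, so the libraries were treated as pooled and no level has a replicate. Every difference below is therefore a difference in size with no test, and each 95% interval is an exact Poisson interval that covers counting error only. The clusters held 3082 cells, from 482 in cluster 0 to 31 in cluster 10 and 19 in cluster 11. Median depth per cell was 1406 UMIs in cluster 5 and 2341 in cluster 6, the shallowest, and 19319 in cluster 7, the deepest. The clusters were drawn from the same expression values, so a level by cluster is a description and not independent evidence. In these averages, few cells with an RNA and little of it in each cell cannot be told apart.

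Mucin-type O-glycans start when a polypeptide GalNAc transferase puts N-acetylgalactosamine (GalNAc) on a serine or threonine. Galactose then gives core 1, or N-acetylglucosamine (GlcNAc) gives core 3, and these cores are branched, lengthened, and capped with sialic acid, fucose or sulfate. In the colon, goblet cells carry this out on Muc2, the gel-forming mucin of the mucus layer, while absorptive cells decorate the membrane mucins of the brush border. The gene names cover more than mucin work, because the same families also build N-glycans, glycolipids and glycosaminoglycans. By acceptor, 21 of the 65 genes act mainly on O-glycans, 6 on N-glycans, 7 on glycolipids and 8 on glycosaminoglycans, 20 act on several kinds, and 3 were given none.

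Cluster 0 was called goblet-like, since all 12 goblet markers looked up (Muc2, Zg16, Fcgbp, Clca1, Agr2 and Tff3 among them) were highest there. Their summed level was 1012 per 10000 in cluster 0 and between 6.44 and 58.8 in the other clusters. The 6 markers of deep crypt secretory cells all peaked there too. Clusters 8 and 9 were called absorptive-like, with 5 and 3 of 11 colonocyte markers highest. Cluster 4 held the highest level of 3 of those markers and of all 4 injury-associated markers. Cluster 7 was proliferating-like (8 of 8 markers highest), cluster 11 enteroendocrine-like (8 of 8) and cluster 5 neutrophil-like (6 of 7). Cluster 10 mixed T cell, macrophage and mast cell markers. Cluster 6 was shallow and mixed tuft and B cell markers with the highest Lgr5 and Slc12a2, which are stem markers. Its enteroendocrine markers summed to 20.9. No listed marker was highest in clusters 1, 2 or 3. Clusters 1 and 3 still leaned towards colonocytes by summed markers (252 and 249), below cluster 9 (366) but above cluster 2 (65.25). Clusters 1, 2, 3, 6 and 10, and also cluster 4, are given by number.

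Promoters of 3 of the enzymes are shown because 2 of them, Galnt10 and Galnt7, start O-glycans and stood highest in cluster 0, and the third, B4galt1, adds galactose and stood highest in cluster 8. Each line gives the 250 bases before the RefSeq transcription start on GRCm38.p6, 5′ to 3′ on the gene's strand. They lie at chr11:57645192-57645441 on the plus strand (Galnt10), chr8:57653056-57653305 on the minus strand (Galnt7) and chr4:40853985-40854234 on the minus strand (B4galt1). Of the B4galt1 bases, 21 lie inside the gene as GENCODE draws it, and the windows of Galnt10 and Galnt7 lie outside theirs. Capitals mark ACGTGG, the core bound by Xbp1- and Creb3-type factors, in Galnt10, and the GC box GGGCGG, or CCGCCC where it is on the other strand, in Galnt7 and B4galt1.

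Galnt10: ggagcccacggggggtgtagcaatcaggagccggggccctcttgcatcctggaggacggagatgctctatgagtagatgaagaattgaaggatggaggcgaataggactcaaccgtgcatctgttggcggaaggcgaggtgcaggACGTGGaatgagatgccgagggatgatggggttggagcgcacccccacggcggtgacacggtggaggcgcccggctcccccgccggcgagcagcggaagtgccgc
Galnt7: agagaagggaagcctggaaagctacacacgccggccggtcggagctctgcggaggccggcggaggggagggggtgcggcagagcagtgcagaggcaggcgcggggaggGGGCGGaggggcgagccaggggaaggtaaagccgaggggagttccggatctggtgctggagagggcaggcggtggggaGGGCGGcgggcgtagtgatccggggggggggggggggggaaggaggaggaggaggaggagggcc
B4galt1: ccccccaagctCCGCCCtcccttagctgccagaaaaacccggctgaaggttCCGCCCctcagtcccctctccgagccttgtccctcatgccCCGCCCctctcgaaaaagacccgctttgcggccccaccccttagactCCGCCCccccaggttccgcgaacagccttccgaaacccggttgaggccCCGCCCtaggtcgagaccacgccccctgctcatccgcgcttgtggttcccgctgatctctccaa

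The windows hold 64.4%, 73.6% and 66.4% G or C in that order, and 20, 19 and 19 CpG dinucleotides. Motifs were searched on both strands over the full RefSeq window of 250 bases before to 50 after the start, in which 51 of the 66 genes had 67 promoters. Of the 12 genes at least 2-fold higher in cluster 0, 8 had a window, and Galnt12, C1galt1c1, Fut2 and Gcnt3 had none. The ACGTGG core was in 1 of those 8 genes (Galnt10) and in 1 of the 6 genes raised in clusters 4 or 8 (B3galt5). Its share was 9.40% of all 27025 genes with a window. The Atoh1-type E-box CAGCTG was in 2 of 8 (C1galt1 and Chst4) and in 0 of 6, against 18.3% of genes. The GC box was in 6 of 8 and in 4 of the 6 genes raised in clusters 4 or 8, against 38.2% of genes. CACGTG, which overlaps ACGTGG where the next base is G, was in 0 of 8 and 1 of 6, against 8.09%, and TGTTTAC and GATAAG were in none of either set, against 4.05% and 8.58%. TATAAA was in 0 of 8 and 1 of 6 (Gcnt1), against 15.7%. TTTATNG and CCGGAAG were each in 1 of 8, both times in Fut8, and in 0 of 6, against 12.5% and 9.93%. A match of letters is not a bound site, and no match says only that these letters are not in the window. The median window of the enzyme genes was 60.3% G or C, against 52.7% over all windows.

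Enzyme RNA was most abundant in cluster 0. The levels of the 65 genes summed to 38.9 per 10000 there (38.3 to 39.5), against 25.5 in cluster 4, the next, and 9.05 in cluster 10, the lowest. Clusters 1, 2, 3, 6 and 8 lay between 19.7 and 23.0, clusters 7 and 9 at 16.6 and 17.7, and clusters 5 and 11 at 11.9 and 12.3. Every step contributed differently: the initiating transferases summed to 9.47 in cluster 0 (9.17 to 9.79) against 1.46 to 5.18 elsewhere, while galactose transfer was highest in cluster 8 at 5.27 and in cluster 4 at 4.87, against 2.65 in cluster 0. Initiation was 24.4% of the enzyme RNA in cluster 0, against 20.8% in cluster 11, the next, and 20.3% in cluster 4. It was 13.5% in cluster 8 and 12.6% in cluster 5, the lowest. Sialyltransferases were the largest group by summed level in every cluster except cluster 11. In cluster 0 they summed to 13.1 and took 33.8% of the enzyme RNA, against 38.2% in cluster 8 and 41.7% in cluster 3, the highest share. Only clusters 5, 10 and 11 had a smaller share than cluster 0, at 33.7%, 25.5% and 26.2%.

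**Figure D1:**
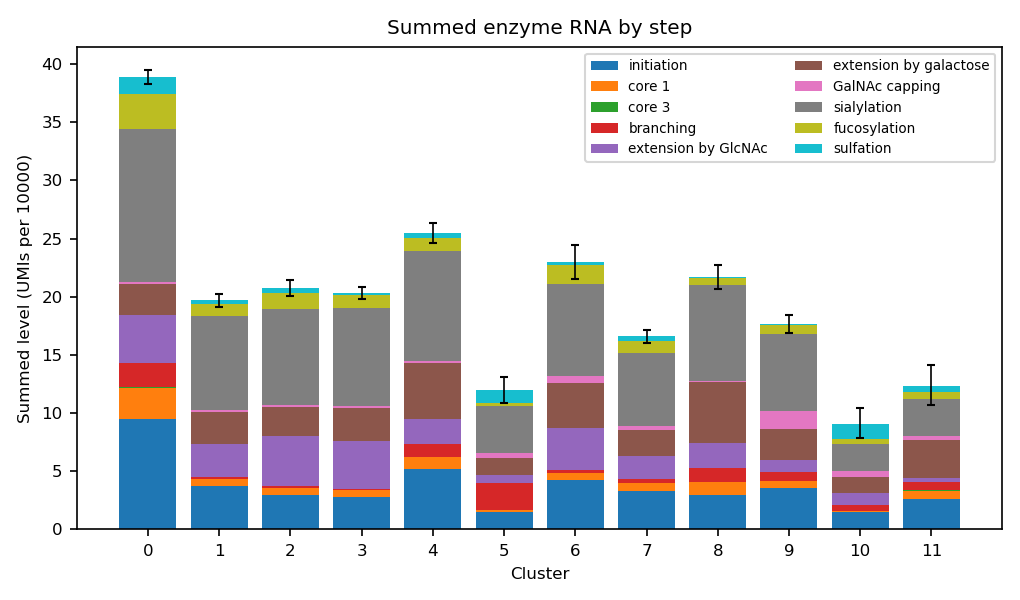
Summed level of the enzyme genes in each cluster (UMIs per 10000), stacked by biosynthetic step, with the exact Poisson 95% interval of the total as a bar. Cluster 0 reaches 38.9 and cluster 4 25.5, and the initiation block at the foot of each column is 9.47 in cluster 0 and at most 5.18 in the others.

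To compare clusters gene by gene, a level was divided by the mean of the other 11 clusters after adding a pseudocount of 0.1 per 10000 to both, which understates the fold of low genes. Genes entered with a mean over the 12 clusters of at least 0.1 per 10000, and a gene was counted at 2-fold. This left 33 of the 66 genes, and 8068 (47.3%) of all genes. In cluster 0, 12 of the 33 were at least 2-fold higher, against 3.4% of all genes, and 2 were at least 2-fold lower, against 11.3%. The 33 had a median log2 fold of 0.71, against -0.18 over all genes. With all 66 genes and no filter, 15 were higher (22.7%, against 1.99% of all genes) and the median was 0.13. Rescaled without the 50 highest genes of each cluster, which in cluster 0 include the mucus genes, 15 enzymes were higher and 5 lower. Over the 9119 genes then past the filter, 3.88% were higher and 13.1% lower. With a pseudocount of 1 per 10000 the numbers were 6 and 0. The shares over all genes were not computed at that setting, so these numbers cannot be set against 3.4% and 11.3%. Of the 33, 14 had their highest level in cluster 0, against 5.26% of all genes, and 8 stood at least 2-fold above even the highest other cluster, against 0.905%. St6gal1, which is among the 12, the 14 and the 8, passed the filter only through its level in cluster 0. Clusters 4, 8 and 11 each held the highest level of 4 (against 8.61%, 11.3% and 20.3% of all genes), cluster 6 of 3 (13.8%), cluster 9 of 2 (4.16%), and clusters 3 and 5 of 1 each (3.89% and 8.04%). No enzyme was highest in clusters 1, 2, 7 or 10, against 1.28%, 2.58%, 13.2% and 7.68%.

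**Figure D2:**
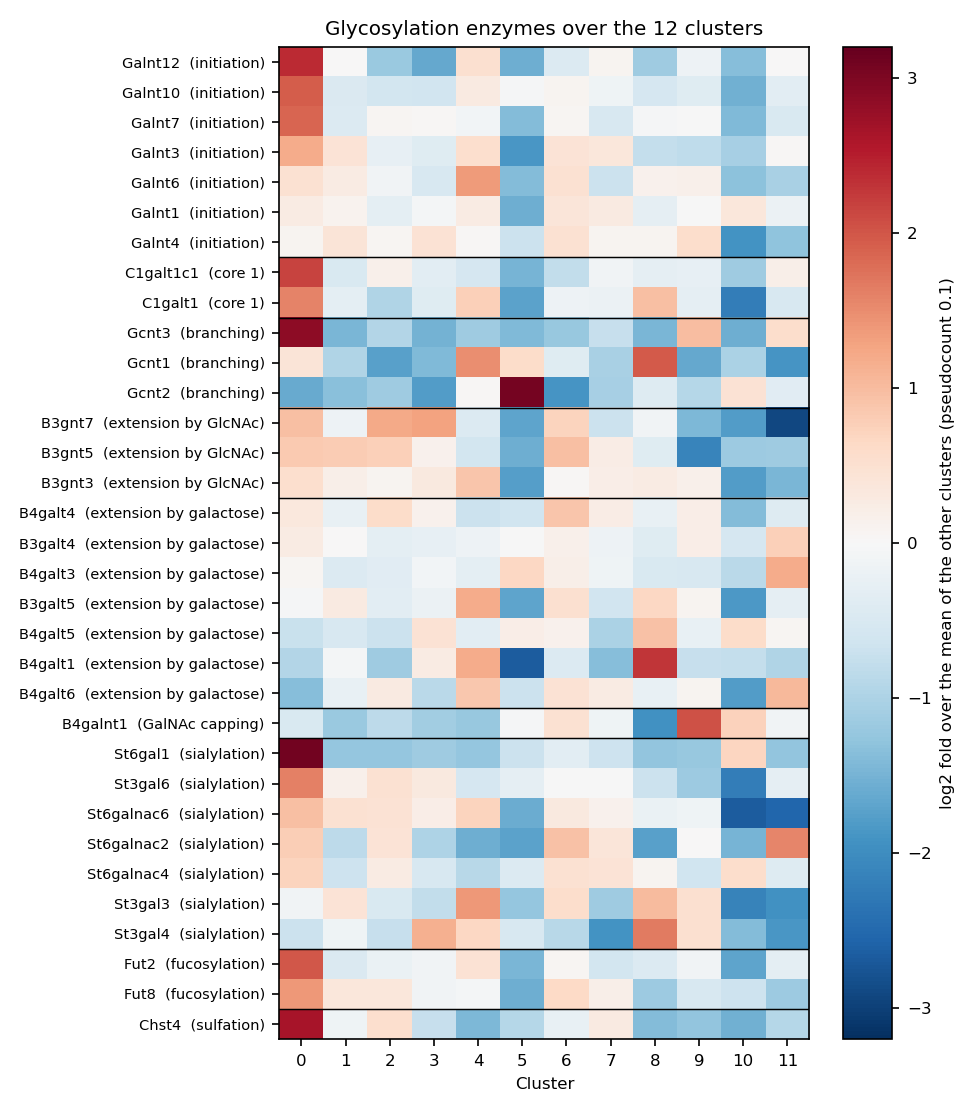
Log2 fold of each of the 33 enzyme genes that passed the filter (rows, grouped by step) in each cluster (columns) relative to the mean of the others, with a pseudocount of 0.1 per 10000. Red is higher and blue lower: St6gal1, Chst4 and Galnt12 are among the deepest reds of cluster 0, and clusters 5 and 10 are mostly blue.

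Of the 7 initiating transferases that passed, 4 were at least 2-fold higher in cluster 0: Galnt12, Galnt7, Galnt10 and Galnt3. Galnt12, a transferase known from the digestive tract (chr4:47091909-47123070, plus strand), was at 2.78 per 10000 in cluster 0 (2.61 to 2.95), and its log2 fold was 2.38. Its levels were 0.923 in cluster 4, 0.693 in cluster 7, 0.659 in cluster 11, 0.650 in cluster 1, 0.579 in cluster 9 and 0.465 in cluster 6. Clusters 8, 2, 10, 5 and 3 followed at 0.253, 0.246, 0.205, 0.167 and 0.157. Cluster 0 thus stood apart from the rest, 3.01 times above cluster 4 (2.50 to 3.66), and the 2 absorptive-like clusters differed from each other, with intervals of 0.155 to 0.390 in cluster 8 and 0.445 to 0.739 in cluster 9. The intervals of clusters 7, 11, 1, 9 and 6 overlapped one another. Galnt12 overlaps the predicted gene Gm12424 on the same strand, and reads of both could be split by the authors' counting.

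Galnt7 and Galnt10, which prefer peptides that already carry a GalNAc, were also highest in cluster 0. Galnt7 was at 2.26 (2.12 to 2.42) in cluster 0 and between 0.215 and 0.723 elsewhere. Galnt10 was at 1.54 (1.42 to 1.67) in cluster 0, with 0.537 in cluster 4 next and 0.0916 in cluster 10 lowest. Neither interval in cluster 0 met that of any other cluster. Galnt3 was at 0.626 in cluster 0 and 0.396 in cluster 4, a ratio of 1.58 (1.18 to 2.18), so its 2-fold difference holds against the mean of the clusters and not against the next one. Galnt6 went another way, highest in cluster 4 at 1.79 (1.58 to 2.04), with 1.02 in cluster 0. Galnt4 and Galnt1 were spread evenly over the epithelial clusters, for example Galnt4 from 0.439 in cluster 4 to 0.641 in cluster 9, leaving out 0.125 in cluster 11. Galnt5 had too low a mean to be counted, and was at 0.310 in cluster 0 and at most 0.0477 elsewhere, a ratio of 6.49 to the next cluster (3.11 to 15.0).

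Both genes of core 1 synthesis were at least 2-fold higher in cluster 0. C1galt1, the core 1 galactosyltransferase, was at 1.35 there (1.24 to 1.47), 0.915 in cluster 8 and 0.801 in cluster 4, and between 0.0293 and 0.404 in the remaining clusters. C1galt1c1, the chaperone (Cosmc) without which that enzyme does not fold, was at 1.33 (1.22 to 1.45) in cluster 0 and at most 0.367 elsewhere. The enzyme was thus shared with clusters 8 and 4, while its chaperone was not raised there, at 0.242 and 0.193. B3gnt6, the core 3 synthase, was scarce in every cluster. It was at 0.0666 (0.0434 to 0.0978) in cluster 0, at most 0.0186 in clusters 1 to 10, and at 0.114 in cluster 11, where the value came from 1 cell.

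The branching enzymes divided between clusters. Gcnt3, the mucin-type enzyme that makes core 2 and core 4 branches, was at 1.70 (1.57 to 1.84) in cluster 0, 0.590 in cluster 9 (0.456 to 0.752) and 0.440 in cluster 11, and at most 0.133 elsewhere. Gcnt1, which makes core 2 only, was highest in cluster 8 at 0.991 (0.785 to 1.23) and cluster 4 at 0.744, with 0.355 in cluster 0. Gcnt2, which makes the I branch of poly-lactosamine chains, was highest outside the epithelium, at 1.80 in the neutrophil-like cluster 5 (1.39 to 2.29), and at 0.0272 in cluster 0. It is 1 of the 2 genes counted as lower in cluster 0, with a log2 fold of -1.61, and without clusters 5 and 10 that fold was -0.72, under the 2-fold line. The other gene lower in cluster 0 was B4galt6, a lactosylceramide synthase, at 0.0687 against 0.671 in cluster 11.

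**Figure D3:**
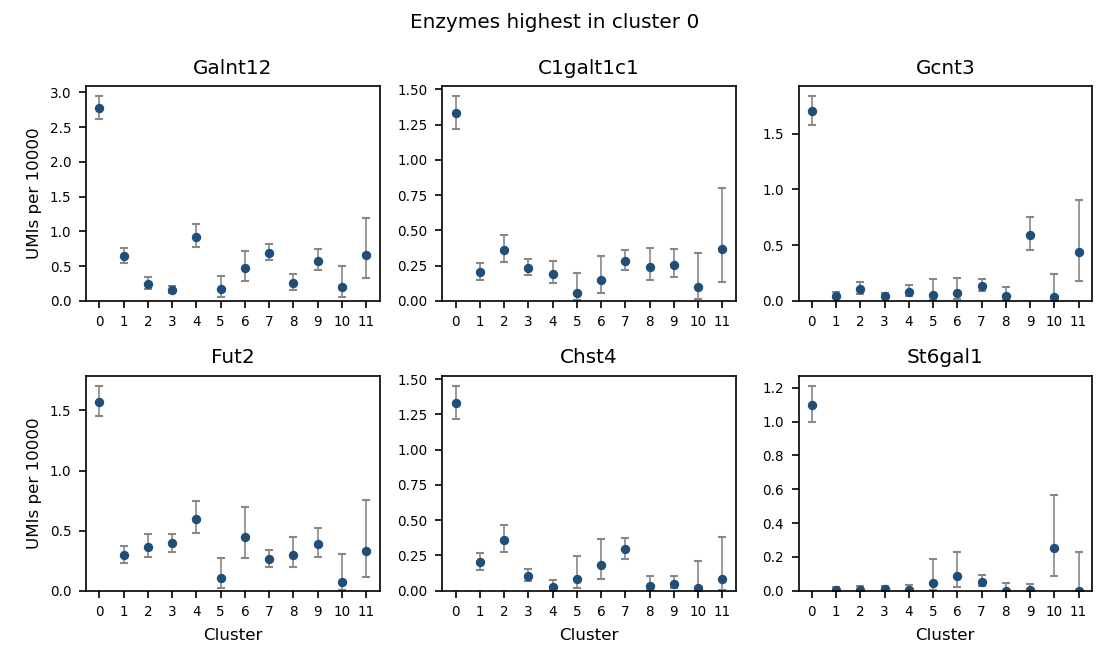
Level of 6 enzymes in each cluster (UMIs per 10000, points) with exact Poisson 95% intervals (bars, counting error only). All 6 are highest in cluster 0, and Gcnt3 is next highest in clusters 9 and 11, at 0.590 and 0.440.

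Fut2, Fut8 and Chst4 were each at least 2-fold higher in cluster 0. Fut2, which makes the H antigen on mucins, was at 1.57 (1.45 to 1.70) in cluster 0, 0.600 in cluster 4, and between 0.0723 and 0.449 elsewhere. Fut8, which puts the core fucose on N-glycans, was at 1.06 (0.958 to 1.17) in cluster 0 and 0.649 in cluster 6 (0.430 to 0.939), a smaller gap. The other 4 fucosyltransferases had too low a mean to be counted: Fut4 reached 0.249 in cluster 0, Fut9 0.327 in cluster 6, Fut11 0.103 in cluster 1 and Fut1 0.0539 in cluster 11. Chst4, which sulfates GlcNAc, was at 1.33 (1.22 to 1.45) in cluster 0, 0.361 in cluster 2, 0.294 in cluster 7 and 0.201 in cluster 1, with at most 0.185 in the rest. In clusters 4, 8 and 9, which lead the colonocyte markers, it was far lower, at 0.0285, 0.0338 and 0.0460. Chst4 was the only 1 of 10 sulfotransferases that passed the filter. Summed over all 10, sulfotransferase RNA was at 1.44 in cluster 0 (1.32 to 1.57), 1.30 in cluster 10 (0.867 to 1.88) and 1.08 in cluster 5, and the intervals of clusters 0 and 10 overlapped.

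The sialyltransferases peaked in different clusters. St6gal1, which adds α2,6-linked sialic acid to N-glycans, had the largest log2 fold of the 33 genes in cluster 0, at 3.09. With a mean of 0.129 it passed the filter only through cluster 0, so its entry and its fold rest on the same level in cluster 0. Its level was 1.10 there (0.999 to 1.21), 0.250 in the mixed immune cluster 10, and at most 0.0844 in the others. It was at 0 in cluster 8, where 3 UMIs would give 0.0374, and in cluster 11, where they would give 0.186, and 4 of its other values came from 1 cell each. St3gal6, which adds α2,3-linked sialic acid to lactosamine ends, was at 3.72 (3.53 to 3.92) in cluster 0 and 1.88 in cluster 2, and was lowest among the epithelial clusters in clusters 9 and 8, at 0.589 and 0.842. St6galnac6 had the highest level of any of the 66 genes, 6.09 in cluster 0 (5.85 to 6.34), but was broad, with 5.23 in cluster 4 and at least 2.91 in every epithelial cluster except cluster 11, at 0.537. St6galnac2, which sialylates the GalNAc of O-glycans, was highest in the enteroendocrine-like cluster 11 at 1.04 (0.602 to 1.67, 19 cells), followed by 0.696 in cluster 6 and 0.633 in cluster 0, and these intervals overlapped. St6galnac4 was highest in cluster 0 at 0.462, with 0.415 in cluster 10.

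Among the extension enzymes, the 3 GlcNAc transferases that passed had a median log2 fold of 0.84 in cluster 0 and the 7 galactose transferases one of -0.04. Of the GlcNAc and galactose transferases that passed, 0 were at least 2-fold higher there (against 3.4% of all genes) and 1 was lower (11.3%), both near the background. B3gnt7, an extension enzyme known from keratan sulfate, was at 2.94 (2.74 to 3.15) in cluster 3, 2.80 in cluster 2, 2.41 in cluster 0 and 2.07 in cluster 6, but only 0.444 in cluster 9 and 0.0991 in cluster 11. B3gnt5, which starts the lacto-series glycolipids, was between 0.912 and 1.03 in clusters 6, 0, 1 and 2, and at 0.0545 in cluster 9. B3gnt3, which extends core 1, was highest in cluster 4 at 0.754, with 0.591 in cluster 0 next. By acceptor, 7 of 14 O-glycan genes that passed were higher in cluster 0, as were both N-glycan genes (St6gal1 and Fut8), 3 of 11 acting on several kinds, and 0 of 6 glycolipid genes, against 3.4% of all genes. The 0 of 6 is near that share, and St6gal1 passed the filter only through its level in cluster 0.

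B4galt1, Gcnt1 and St3gal3 were at least 2-fold higher in both cluster 4 and cluster 8. In cluster 8, 4 of the 33 genes were at least 2-fold higher (against 7.15% of all genes) and 7 lower (19.4%). When the levels were rescaled without mitochondrial, ribosomal and Malat1 RNA, 3 were higher (5.05%) and 9 lower (23.6%), and St3gal3 was the one lost. In cluster 4, 5 were higher (6.09%) and 5 lower (15%), so most of these counts lie near the background and the genes are given for their levels. B4galt1, the main lactosamine galactosyltransferase, was at 2.54 (2.21 to 2.92) in cluster 8, 1.39 in cluster 4 and 0.749 in cluster 3, but 0.289 in cluster 0. St3gal4 was at 3.26 (2.87 to 3.68) in cluster 8, 2.41 in cluster 3, 1.77 in cluster 4 and 1.60 in cluster 9, but 0.692 in cluster 0 and only 0.250 in cluster 7. St3gal3 was at 1.19 in cluster 4 and 0.937 in cluster 8. B3galt5, which makes type 1 chains, was at 2.09 (1.85 to 2.34) in cluster 4 and 1.50 in cluster 8, but 0.930 in cluster 0. Both clusters held little St6galnac2, at 0.0605 and 0.0429 in clusters 4 and 8, and little Gcnt3, at 0.0802 and 0.0450.

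**Figure D4:**
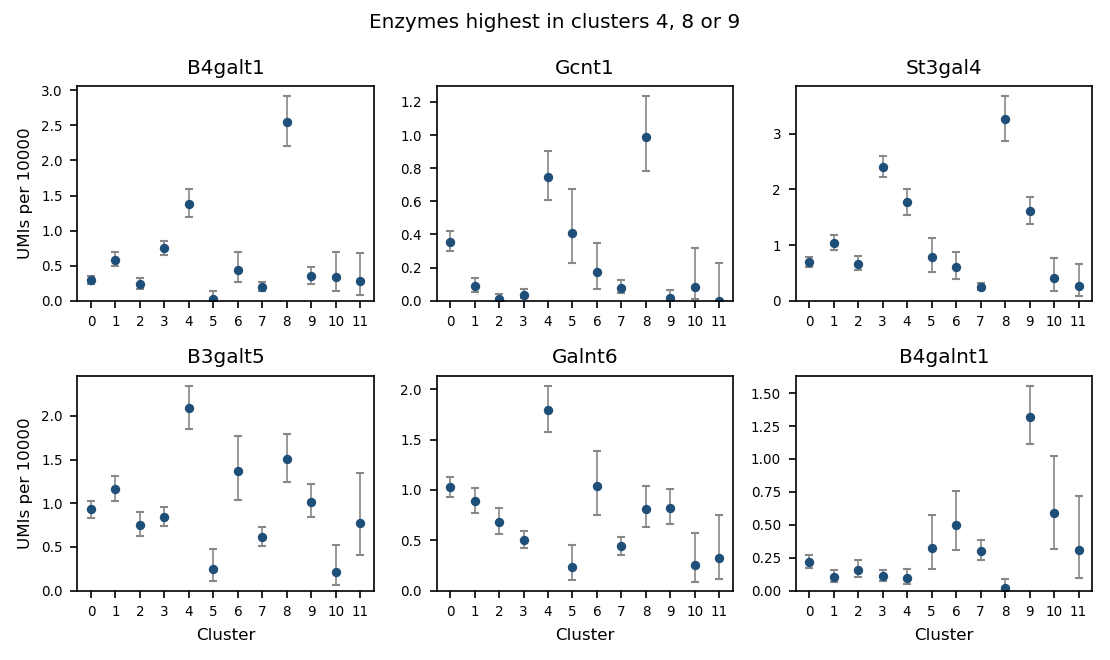
Level of 6 enzymes that are highest in cluster 4, 8 or 9 (UMIs per 10000, points) with exact Poisson 95% intervals (bars, counting error only). B4galt1, Gcnt1 and St3gal4 peak in cluster 8, B3galt5 and Galnt6 in cluster 4, and B4galnt1 in cluster 9 at 1.32.

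Clusters 8 and 9, both absorptive-like, were compared with each other. Of the 33 genes, 6 were at least 2-fold higher in cluster 8 than in cluster 9 (against 6.95% of all genes) and 3 were lower (11.4%), the latter below that share. These counts were 1 and 1 with a pseudocount of 1, and 4 and 4 when rescaled without mitochondrial, ribosomal and Malat1 RNA. The shares over all genes were not computed for these settings. B4galt1 was 7.34 times higher in cluster 8 (5.20 to 10.7), and Gcnt1 51.4 times higher (14.7 to 462), with 0.0193 per 10000 in cluster 9 resting on a few UMIs. B3gnt5 was 7.13 times higher (2.92 to 20.8), and B3gnt7, B4galt5 and C1galt1 between 2.46 and 2.88 times. In the other direction, B4galnt1, the GM2 and GD2 ganglioside synthase, was at 1.32 (1.12 to 1.55) in cluster 9 and 0.0223 in cluster 8, a ratio of 0.0169 (0.00226 to 0.0693). B4galnt2, which makes the Sda antigen, had too low a mean to be counted, yet was also highest in cluster 9, at 0.252 (0.168 to 0.365) against at most 0.0972 elsewhere. Gcnt3 in cluster 8 was 0.0762 of its level in cluster 9 (0.0224 to 0.227), and St6galnac2 0.121 (0.0209 to 0.333).

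A pair of sialyltransferases and a pair of branching enzymes, each with like activities, changed places between clusters. The pairs were chosen after their values were seen, and a share sets 2 genes side by side that may be captured unequally, so it is read across clusters and not as an amount of enzyme. St3gal6 made up 84.3% of the summed level of St3gal6 and St3gal4 in cluster 0, 84.5% in cluster 7 and 80.8% in cluster 11. Its share was 34.7% in cluster 4, 26.9% in cluster 9 and 20.5% in cluster 8. Gcnt3 made up 82.7% of Gcnt3 and Gcnt1 in cluster 0 and 96.8% in cluster 9, but 9.73% in cluster 4 and 4.34% in cluster 8. Clusters 8 and 9 therefore lay on the same side for the sialyltransferases and on opposite sides for the branching enzymes. St3gal6 overlaps Dcbld2 on the opposite strand, and strand use in counting is not given in the sources used here.

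**Figure D5:**
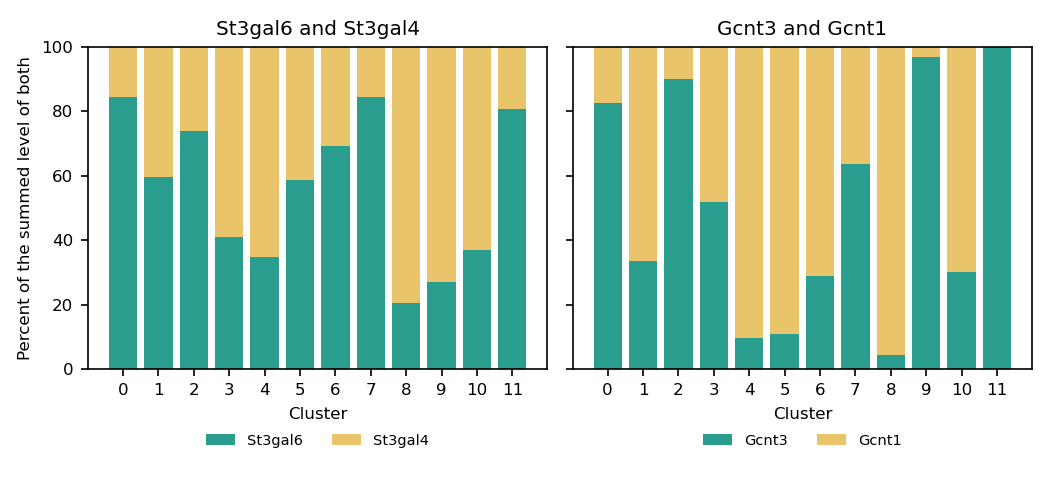
Share of each gene in the summed level of its pair, in percent, by cluster, for St3gal6 with St3gal4 (left) and Gcnt3 with Gcnt1 (right). In cluster 9 St3gal6 is at 26.9% but Gcnt3 at 96.8%, whereas in cluster 8 both are low, at 20.5% and 4.34%.

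Cluster 4, with the injury-associated markers, was compared with cluster 1, which lacks a name. Of the 33 genes, 3 were at least 2-fold higher in cluster 4 (B4galt1, Gcnt1 and Gcnt2, against 3.99% of all genes) and 2 lower (Chst4 and B3gnt5, against 4.96%). When the levels were rescaled without the 50 highest genes, 8 were higher, and the share over all genes was not computed. Gcnt1 was 8.46 times higher (5.12 to 14.2), Gcnt2 5.25 times (2.62 to 10.8) and B4galt1 2.36 times (1.88 to 2.98). B3gnt5 was 0.356 of its level in cluster 1 (0.253 to 0.495). Of the genes with too low a mean to be counted, Chst15, a chondroitin sulfotransferase, was at 0.363 in cluster 4 against 0.0938 in cluster 1, a ratio of 3.87 (2.29 to 6.83). Between the proliferating-like cluster 7 and cluster 2, 1 of the 33 genes was at least 2-fold higher in cluster 7 and 2 were lower. Over all genes the shares were 2.97% higher and 3.36% lower, so both counts lie near the background. The 3 genes are given for their levels. Galnt12 stood 2.82 times higher in cluster 7 (1.98 to 4.11), while B3gnt7 and St3gal4 reached only 0.285 and 0.374 of what cluster 2 held. Against the mean of all other clusters, cluster 7 had 0 genes higher (5.03%) and 6 lower (10.4%), and cluster 9 had 1 higher (2.06%) and 6 lower (10.4%). Few genes stood out in the unnamed clusters: 0 were higher and 4 lower in cluster 1 (against 0.57% and 7.81% of all genes), 1 and 5 in cluster 2 (0.756% and 7.05%), 2 and 6 in cluster 3 (1.34% and 10.2%), and 0 and 2 in cluster 6 (5% and 7.76%). In cluster 6 this became 4 and 3 when rescaled without mitochondrial, ribosomal and Malat1 RNA, against 10.1% and 6.79% of all genes. The gene higher in cluster 2 was B3gnt7, and those higher in cluster 3 were B3gnt7 and St3gal4.

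In the cells with immune markers most of these enzymes were scarce. Cluster 5 had 1 gene higher (Gcnt2, against 7.62% of all genes) and 18 lower (40.4%). Rescaled without the 50 highest genes, it had 4 higher (10.3%) and 19 lower (34.1%). Cluster 10 had 0 higher (6.8%) and 23 lower (27.2%), or 3 (7.62%) and 24 (30.0%) with that rescaling. Low counts weigh here, since cluster 5 is the shallowest and cluster 10 has 31 cells. Goblet markers summed to 40.9 per 10000 in cluster 5 and 25.6 in cluster 10, and the part of goblet RNA in their enzyme levels was not tested. Among genes with too low a mean to be counted, the chondroitin sulfotransferases Chst11 and Chst12 stood out in these clusters: Chst11 was at 0.773 (0.513 to 1.12) in cluster 5 and 0.376 in cluster 10, against at most 0.0106 elsewhere, and Chst12 at 0.591 in cluster 10. St3gal5, which makes the ganglioside GM3, was at 0.384 in cluster 5, and B3gnt8 at 0.461 in cluster 10. The enteroendocrine-like cluster 11 had 3 higher (B4galt3, St6galnac2 and B4galt6, against 12.2% of all genes) and 11 lower (18.5%). Rescaled without mitochondrial, ribosomal and Malat1 RNA, it had 2 higher (10.9%) and 17 lower (21.8%).

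Most of the enzymes that were higher in cluster 0 were less restricted to it than 6 mucus genes were. Those 6 are among the goblet markers by which cluster 0 was named. The mucins Muc1 and Muc4, also at least 2-fold higher there, were not in the comparison. In the 9 other clusters without immune labels (all but 5 and 10), the median level of the mucus genes Muc2, Zg16, Fcgbp, Clca1, Tff3 and Agr2 was between 0.676% and 5.58% of that in cluster 0. For the 12 enzymes at least 2-fold higher in cluster 0 it ran from 0.232% (St6gal1) to 41.2% (Galnt3). Galnt12 had a median of 20.8% (5.64% to 33.2% over the 9 clusters), C1galt1c1 18.2% and Fut2 23.0%. Gcnt3 and Chst4, at 4.72% and 7.87%, were close to Agr2 at 5.58%. The St6gal1 median rests on a level of 0.00255 per 10000 in cluster 4, where 1 UMI would give about 0.00743. It is therefore at the floor and cannot be ranked against Muc2 at 0.991%. The part of free RNA in any of these levels was not tested.

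Galnt12 was compared with the 3275 other genes at 1 or more per 10000 in some cluster, by Pearson's r of log2(level + 0.1) over the 12 clusters. The clusters share libraries and differ in depth, so r is a description with no test. Among the enzymes the closest were Galnt10 (r = 0.80), Fut2 (0.79), Gcnt3 (0.77), C1galt1c1 (0.75) and C1galt1 (0.69). Among other genes they were Guca2b, which encodes uroguanylin (0.89), Rassf6 (0.89), Gpr20 (0.83), Trabd (0.80), Kdelr2, a receptor that returns proteins to the endoplasmic reticulum (0.80), Slc12a8 (0.80), Sil1 (0.78), Gmppb, which makes GDP-mannose (0.78), Qsox1, a secreted sulfhydryl oxidase (0.77), and Wars (0.77). Of all pairs of the enzymes, Fut2 and Galnt7 were the most alike, at 0.96.

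The enzymes that make and move the sugar donors leaned the same way as the transferases. Of 28 such genes with a row, 24 passed, and 6 were at least 2-fold higher in cluster 0 (Pgm3, Nans, Slc35a1, Gmds and Tsta3 among them, against 3.4% of all genes) and 1 was lower (Ugdh, against 11.3%), with a median log2 fold of 0.58. Nans, the sialic acid synthase, was at 10.1 per 10000 in cluster 0 and 8.31 in cluster 2, and Slc35a1, the Golgi transporter of CMP-sialic acid, at 2.41 and 1.56. Gmds and Tsta3, which make GDP-fucose, were at 6.51 and 4.27 in cluster 0. Ugdh, which makes UDP-glucuronic acid, was highest in clusters 9 and 8, at 4.24 and 3.70, with 0.324 in cluster 0. Of 12 N-glycan branching genes, 10 passed, with 0 higher (against 3.4% of all genes) and 2 lower (11.3%) in cluster 0. The 2 were Mgat4a, at 4.27 in cluster 8, and Mgat4c, at 5.17 in cluster 9. Of 12 other O-glycan enzymes 4 passed, with 0 higher and 0 lower, and of 12 lysosomal glycosidases and sulfatases 9 passed, with 0 higher and 1 lower (Neu1, a sialidase, at 3.92 in cluster 8 and 0.469 in cluster 0). All of these lists are small. Outside the donor list, their counts are not read as different from the shares of 3.4% and 11.3% over all genes.

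Of the 33 genes under the filter, Galnt6os among them, B4galt7, B3gnt8 and Chst11 just missed it, with means of 0.0998, 0.0996 and 0.0984 per 10000. The lowest that passed was St6gal1, with a mean of 0.129. The highest level of any gene under the filter was that of Chst11, 0.773 in cluster 5. Of the 792 levels of the 66 genes, 130 were 0 and 73 came from 1 cell each, and 22 genes reached 1 per 10000 in some cluster. Galnt6os, the antisense RNA, was at most 0.0631 in any cluster, and reads of it and Galnt6 cannot be told apart if strand was not used.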

How the data were processed

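Colon epithelium of irradiated wild-type mice was profiled in 1 group of 2 single-cell libraries. Cell Ranger 3.1.0, Seurat 2.3 and build mm10 are named in the submitters' processing notes. The sources used here do not give the annotation, cell filters, doublet treatment, clustering settings or strand use, and cell barcodes were not analysed here. The authors deposited 1 value per gene and cluster, the mean of UMIs per 10000 over the cells of 12 clusters, on a linear scale. This unit was read from the values: each column sums to 10000 and low values are 10000 divided by whole numbers (within a relative tolerance of 1e-12).

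From that arithmetic the cells of each cluster and the UMI totals of 2782 of 3082 cells (90.3%) were recovered, a total being accepted where at least 2 genes gave it. Counts behind a level are approximate and use the harmonic mean of these totals. In data simulated from the 12 clusters' own averages (17044 genes), all 12 cell numbers were recovered and the 95% intervals of the levels covered the truth in 95.1% of values on average and 83.3% in the worst cluster, so some intervals are too narrow. The harmonic mean of the recovered totals was between 0.911 and 2.24 times the true one, so the approximate counts can be off by as much. Every simulated cell was drawn from its cluster's average, so differences between the cells of a cluster were not included. With no replicates, nothing was tested. Folds used a pseudocount of 0.1 per 10000, genes needed a mean of 0.1, and a gene was counted at 2-fold. The alternatives changed the pseudocount, the filter, the denominator, the clusters compared with and the fold.

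The enzymes, gene lists, acceptors and tests were chosen with earlier results of these data known. Steps and acceptors were assigned by hand from general knowledge. Genes named were those at 1 per 10000 or more in some cluster, the highest and the most cluster-restricted of each step, those past 2-fold in cluster 0, and those most like Galnt12. The donor, mucus and other list genes, Galnt1, Galnt4, Galnt5, Galnt6os, the low fucosyltransferases and sulfotransferases, B4galnt2, B4galt5, B3gnt8, St3gal5 and St6galnac4 were chosen after their values were seen. Of 94 enzyme names listed, 27 were not analysed here. Gene positions are from GENCODE on GRCm38 and promoters from RefSeq on GRCm38.p6. Python 3.11.15 with numpy 2.4.6, pandas 2.3.3, scipy 1.17.1 and matplotlib 3.10.9 was used.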

Additional observations from a re-analysis of the deposited data

How the results depend on the processing

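No single fold or median listed changed sign under the alternatives run. In cluster 6, 0 higher and 2 lower became 4 and 3 without mitochondrial, ribosomal and Malat1 RNA. The shares over all genes moved there too, from 5% and 7.76% to 10.1% and 6.79%. The pseudocount moved the most counts. With a pseudocount of 1 per 10000, 6 enzymes were at least 2-fold higher in cluster 0 in place of 12 and 0 lower in place of 2, the median log2 fold there was 0.24 in place of 0.71, and in clusters 4, 8 and 9 the numbers higher were 0, 2 and 0 (5, 4 and 1 before). The numbers lower in clusters 4, 7, 8 and 9 were then 0, 0, 0 and 0 (5, 6, 7 and 6 before). With 0.01 per 10000, 4 were lower in cluster 0. A mean of at least 0.5 left 10 enzymes, of which 3 were higher (4.64% of all genes) and 0 lower in cluster 0 and 4 highest there (14 before). With no filter the median in cluster 0 was 0.13 and 2 enzymes were higher in cluster 9. At 4-fold, 5 were higher and 0 lower in cluster 0. Where the text gives no share over all genes for an alternative, none was computed, and such a count cannot be set against the share at the main setting. Without mitochondrial, ribosomal and Malat1 RNA, 4 were lower in cluster 0 (12.2% of all genes), 2 were higher in cluster 9 (2.22%), and the enzymes summed to 49.7 in cluster 0. Without the 50 highest genes of each cluster there were 5 lower in cluster 0 (13.1% of all genes), a median of 0.41 and a sum of 56.0. These rescalings moved the median of all genes by more than 0.1 (log2) in clusters 2, 5, 6, 7, 8 and 11, by 0.17 in cluster 6 and -0.17 in cluster 8 at the first and 0.19 in cluster 5 at the second. Comparing cluster 0 with other clusters weighted by cells, or leaving out clusters 5 and 10, 10 and 11, or 5 and 6, gave 12 higher each time. The single folds kept their side of 2-fold in 329 of 384 recomputations.

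For the pairs of clusters, alternatives were chosen after seeing the data. With a pseudocount of 1, cluster 8 over cluster 9 had 1 higher (6 before) and 1 lower (3 before), cluster 4 over cluster 1 had 0 and 0 (3 and 2 before), and cluster 7 over cluster 2 had 0 and 1 (1 and 2 before). Without the 50 highest genes, cluster 4 over cluster 1 had 8 higher. Without mitochondrial, ribosomal and Malat1 RNA, cluster 8 over cluster 9 had 4 higher and 4 lower. The cause of these shifts was not tested. No paired analysis was possible because the columns do not separate the libraries, and leaving out each library was not run for the same reason.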
